A study of Rattus norvegicus with 16 samples.

Results

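The tumour suppressor p53 and the genes that it switches on were followed in rat liver through a panel of 9 growth arrest and p53 target genes: Mdm2, Cdkn1a, Ccng1, Gadd45a, Btg2, Rprm, Bax, Aen and Phlda3. A gene was measured here where the array's annotation gave at least 1 probe set (a group of probes for one transcript) that symbol alone, and its value was that of the probe set with the highest mean over all arrays. Of the 9 genes 7 were measured, with 11 of the 31139 probe sets of the array, and 10 of these 11 were among the 22634 probe sets tested. Bax was annotated only on a probe set shared with another symbol and Btg2 had no listed probe set, so neither has a value here. Rprm was taken up because it was lower with hydrogen in these arrays, so its hydrogen differences are given as a description and were not tested. The other genes, the further gene lists and the tests were also chosen with earlier results of these data known.

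The livers came from 16 male F344 rats, an inbred strain, 4 weeks old per the labels and reared for 3 weeks, in 4 groups of 4. The first group ate the CDAA diet, which lacks choline and supplies L-amino acids in place of protein and gives rats a fatty liver, and received hydrogen as hydrogen-rich drinking water (0.7 mM) and air with 2% hydrogen. The second ate the CDAA diet with dehydrogenized water and plain air (control). The third ate basal chow (normal diet) with hydrogen, and the fourth ate basal chow with dehydrogenized water and plain air. Each rat gave 1 Affymetrix RG-230 PM array, deposited as normalised log2 signals from 2.42 to 13.73 with array medians of 4.33 to 4.37. Precision is limited by the number of arrays. The 7 hepatocyte markers measured averaged 12.2 to 12.7 log2 on every array, as the liver label implies. Along the main axis of variation between arrays (66.0% of the variance), which separated the diets, the normal-diet control array of replicate 4 lay at -13.4, against -35.1 to -32.0 for the other normal-diet arrays and 23.8 to 40.1 for the CDAA arrays.

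In unstressed cells p53 is kept scarce because Mdm2 marks it for degradation. DNA damage and other stress lift that restraint, and p53 then binds paired copies of a short DNA element and activates genes that stop the cell cycle, aid repair or start cell death, as well as Mdm2 itself, which closes the loop. In liver Cdkn1a and Gadd45a are also switched on by other stress factors, so a change in one gene is not a measure of p53 activity.

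The promoters of the measured genes are shown first because 4 of these 7 hold the p53 half-site consensus between 250 bases before and 50 bases after the gene start, a motif found on both strands by construction, since it is its own reverse complement. It was present in 7.98% of all 33469 rat promoter windows of that length (RefSeq, GRCr8). Below, the half-site is in capitals and each sequence is read along the strand of its gene. It starts at position -201 from the gene start in Cdkn1a, at -232 in Ccng1, at -48 in Gadd45a and at -30 in Aen.
Cdkn1a, chr20:7150706-7150765, plus strand: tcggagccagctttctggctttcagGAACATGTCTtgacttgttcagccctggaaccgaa
Ccng1, chr10:25685074-25685126, minus strand: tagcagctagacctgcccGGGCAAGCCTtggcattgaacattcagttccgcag
Gadd45a, chr4:97486813-97486872, minus strand: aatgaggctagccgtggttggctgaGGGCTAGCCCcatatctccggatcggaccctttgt
Aen, chr1:142224478-142224537, plus strand: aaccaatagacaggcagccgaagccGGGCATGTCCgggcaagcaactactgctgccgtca

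The better of the neighbouring decamers differed from the same consensus at 1 base in Cdkn1a, 1 in Ccng1, 2 in Aen and 6 in Gadd45a. A match is a description of these letters and not a site shown to be bound. The windows of Mdm2, Rprm and Phlda3 held no half-site, which says only that these letters are not in this window. The motif GGGCGG, searched on both strands, was in 5 of 7 windows, against 33.1% of all windows, and CACGTG, whose reverse complement is itself, was in 1 (Aen), against 6.42%. Rprm, which was chosen on its hydrogen difference, is shown from 250 bases before its start up to the start, with its only GGGCGG, which lies on the opposite strand, in capitals.
Rprm, chr3:58950036-58950285, minus strand: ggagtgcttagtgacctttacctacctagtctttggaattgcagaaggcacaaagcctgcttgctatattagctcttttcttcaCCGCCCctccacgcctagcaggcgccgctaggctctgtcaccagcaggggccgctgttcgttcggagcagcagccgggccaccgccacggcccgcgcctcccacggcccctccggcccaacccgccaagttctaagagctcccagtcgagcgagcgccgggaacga

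**Figure D1:**
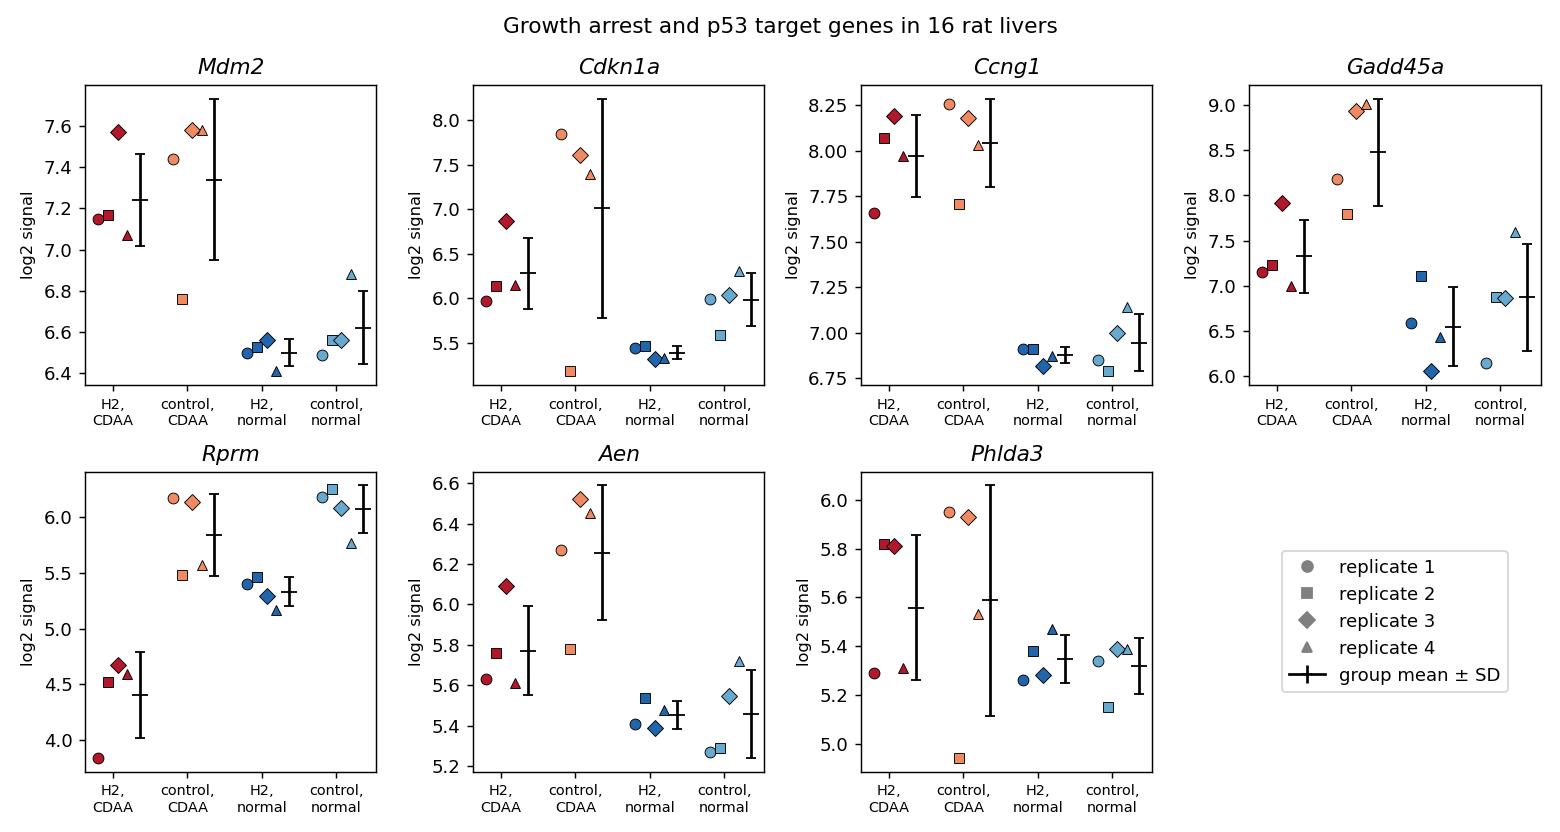
Normalised log2 signal (vertical axis, a separate range for each gene) of the 7 measured genes on each of the 16 arrays, by group (horizontal axis), with the replicate number as the marker shape and the group mean ± SD beside the points (n = 4). Ccng1 and Mdm2 lie higher in both CDAA groups, Rprm lies lowest in the hydrogen CDAA group, and replicate 2 of the control CDAA group is the lowest of its group in every panel.

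The CDAA diet raised Ccng1, Mdm2, Gadd45a and Aen above their levels on normal chow in control rats, and Ccng1 and Mdm2 in rats given hydrogen. Ccng1 was about 2.1-fold higher on the CDAA diet with or without hydrogen. In control rats Gadd45a was 3.05-fold higher with the CDAA diet. Averaged over hydrogen, Rprm was 1.49-fold lower on the CDAA diet, with a difference of -0.93 log2 between the hydrogen groups and -0.23 between the control groups, which overlapped. RNA came from whole liver, so a change in the share of a cell type and a change in RNA per cell cannot be told apart.

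Ccng1 encodes cyclin G1, a p53 target that brings a phosphatase to Mdm2. Its probe set (1367764_PM_at) read 7.66, 8.07, 8.19 and 7.97 log2 in the 4 livers of the hydrogen CDAA group and 8.26, 7.71, 8.18 and 8.03 in control CDAA livers. It read 6.91, 6.91, 6.82 and 6.87 in hydrogen normal-diet livers and 6.85, 6.79, 7.00 and 7.14 in control normal-diet livers. Every CDAA liver lay above every normal-diet liver. The CDAA minus normal difference was 1.10 ± 0.120 log2 in control rats (limma standard error, adjusted p = 1.01e-05) and 1.10 ± 0.120 under hydrogen (adjusted p = 5.02e-06).

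Mdm2 encodes the ubiquitin ligase that removes p53. Its probe set 1383288_PM_at read 7.15, 7.17, 7.57 and 7.07 log2 in hydrogen CDAA livers and 7.44, 6.76, 7.58 and 7.58 in control CDAA livers. It read 6.50, 6.53, 6.56 and 6.41 in hydrogen normal-diet livers and 6.49, 6.56, 6.56 and 6.88 in control normal-diet livers. The hydrogen groups did not overlap between diets, whereas the control groups did, because control CDAA replicate 2 (6.76) lay below control normal replicate 4 (6.88). The diet difference was 0.72 ± 0.155 log2 in control rats (1.64-fold, limma adjusted p = 0.00193) and 0.74 ± 0.155 under hydrogen (1.67-fold, adjusted p = 0.00119). A further probe set of the gene (1384427_PM_at) was also called higher, by 0.75 ± 0.190 log2 in control rats (limma adjusted p = 0.00582) and 0.52 ± 0.190 under hydrogen (adjusted p = 0.0364). The last, 1383485_PM_at, had group means of only 3.92 to 4.08 log2, close to the detection line of 3.68, and was not called (0.14 log2 in control rats, limma adjusted p = 0.0604).

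Gadd45a encodes a stress-induced protein of cell cycle arrest and DNA repair. Its probe set (1368947_PM_at) read 7.15, 7.23, 7.92 and 7.00 log2 in hydrogen CDAA livers and 8.18, 7.79, 8.94 and 9.01 in control CDAA livers. It read 6.59, 7.11, 6.05 and 6.43 in hydrogen normal-diet livers and 6.14, 6.88, 6.86 and 7.60 in control normal-diet livers. Control livers did not overlap between diets, and hydrogen livers did. The diet difference was 1.61 ± 0.319 log2 in control rats (limma adjusted p = 0.00103) and passed the test there. Under hydrogen it was 0.78 ± 0.319 (1.72-fold) and missed the threshold (limma adjusted p = 0.0567). It passed at adjusted p of 0.0408, 0.0405, 0.0414 and 0.0313 without control CDAA replicate 2, control normal replicate 4, control normal replicate 1 and hydrogen normal replicate 2, each left out alone.

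Aen encodes a nuclease that p53 induces during apoptosis. Its probe set 1383491_PM_at read 5.63, 5.76, 6.09 and 5.61 log2 in hydrogen CDAA livers and 6.27, 5.78, 6.52 and 6.45 in control CDAA livers. It read 5.41, 5.54, 5.39 and 5.48 in hydrogen normal-diet livers and 5.27, 5.29, 5.55 and 5.72 in control normal-diet livers. Neither pair of groups overlapped between diets, though both gaps were small. They lay between 5.78 and 5.72 in control rats and between 5.61 and 5.54 under hydrogen. The diet difference was 0.80 ± 0.146 log2 in control rats (1.74-fold, limma adjusted p = 5.91e-04) and 0.32 ± 0.146 under hydrogen, which was not called (adjusted p = 0.0881). The other Aen probe set (1384997_PM_at) lay at 3.33 to 3.74 log2, around the detection line, and was not tested.

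Cdkn1a encodes p21, the inhibitor of cyclin-dependent kinases through which p53 arrests cells in G1. Its probe set 1388674_PM_at read 5.97, 6.14, 6.87 and 6.15 log2 in hydrogen CDAA livers and 7.85, 5.18, 7.61 and 7.40 in control CDAA livers. It read 5.44, 5.47, 5.32 and 5.33 in hydrogen normal-diet livers and 5.99, 5.59, 6.04 and 6.31 in control normal-diet livers. In the control CDAA group 3 livers lay above every other array, and replicate 2 was the lowest of all 16. The diet difference was 1.03 ± 0.410 log2 in control rats (limma adjusted p = 0.0621) and 0.89 ± 0.410 under hydrogen (adjusted p = 0.0869), and neither was called, although hydrogen livers did not overlap between diets. Averaged over hydrogen the difference was 0.96 ± 0.290 log2 (1.95-fold, limma adjusted p = 0.0103) and Cdkn1a was called higher. The other Cdkn1a probe set (1387391_PM_at) lay at 3.25 to 4.36 log2, around the detection line, and was not called.

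Phlda3 encodes a membrane-binding protein that holds back the kinase Akt. Its probe set (1375224_PM_at) read 5.29, 5.82, 5.81 and 5.31 log2 in hydrogen CDAA livers and 5.95, 4.94, 5.93 and 5.53 in control CDAA livers. It read 5.26, 5.38, 5.28 and 5.47 in hydrogen normal-diet livers and 5.34, 5.15, 5.39 and 5.39 in control normal-diet livers. All groups overlapped, with CDAA livers spread more widely. The diet difference was 0.27 ± 0.181 log2 in control rats (limma adjusted p = 0.268) and 0.21 ± 0.181 under hydrogen (adjusted p = 0.360).

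Among the 6 genes other than Rprm the diet raised 4 in control rats, where 21% of all probe sets and 27.3% of all genes tested were called higher. Under hydrogen it raised 2, where 25.5% of probe sets and 32.1% of genes were called higher. Averaged over hydrogen it raised 5 of all 7 measured genes (30.4% of probe sets and 38.1% of genes called higher). It lowered 1, Rprm (25.7% of probe sets and 22.4% of genes called lower). The median diet difference of the 6 genes was 0.91 log2 in control rats and 0.76 under hydrogen, against 0.04 and 0.05 over all genes. The CDAA livers lay wholly above the normal-diet livers for 3 of the 6 in control rats (Ccng1, Gadd45a and Aen), with 18.9% of probe sets doing so, and for 4 under hydrogen (Ccng1, Mdm2, Cdkn1a and Aen), with 22.8%. The diet moved a large part of the array, and whether the panel differs from the rest of it was not tested.

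**Figure D2:**
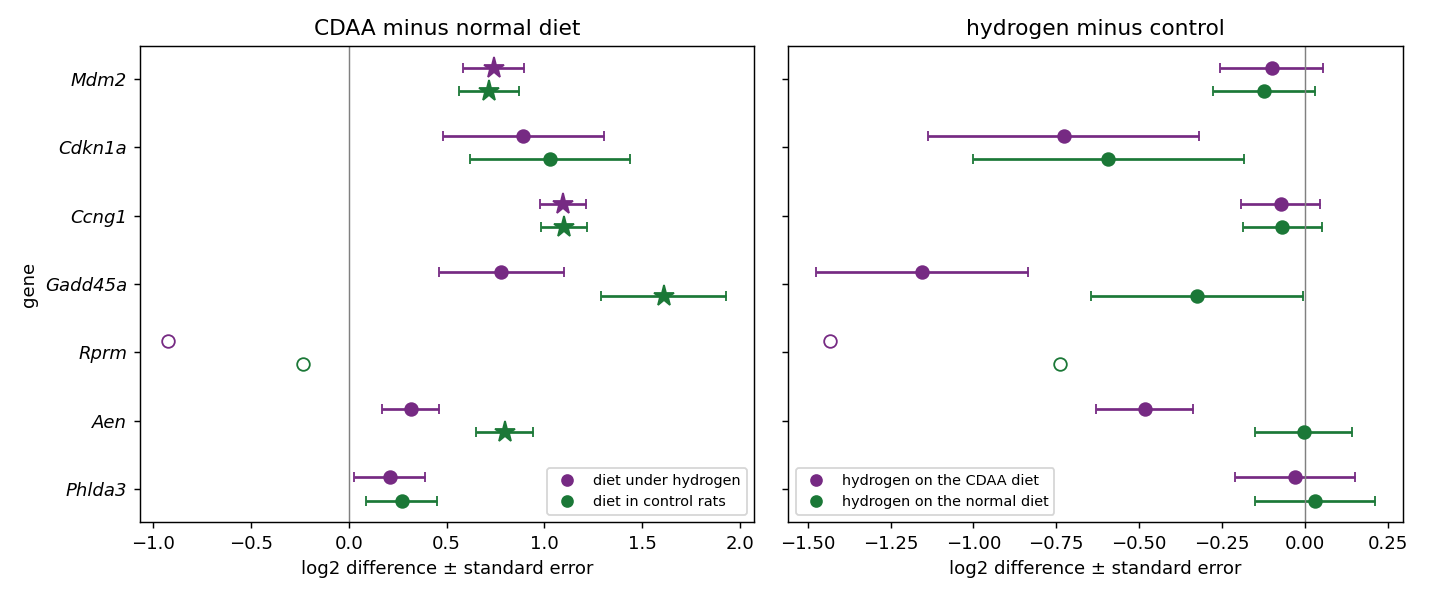
Differences between group means in log2 units with the limma standard error, CDAA minus normal diet at left and hydrogen minus control at right. Stars are called at a limma adjusted p under 0.05, filled circles are tested and not called, and the open circles of Rprm are values with no test. No hydrogen difference of the 6 tested genes carries a star.

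Rprm encodes reprimo, described in human cells as a p53-induced glycoprotein that halts cells in G2. Its probe set (1390672_PM_at) read 3.84, 4.52, 4.67 and 4.59 log2 in hydrogen CDAA livers and 6.17, 5.48, 6.13 and 5.57 in control CDAA livers. On normal chow it read 5.40, 5.46, 5.29 and 5.17 in hydrogen livers and 6.18, 6.25, 6.08 and 5.77 in control livers. Hydrogen livers lay below control livers without overlap on each diet, and hydrogen CDAA livers lay below all other arrays. All values were above the detection line of 3.68, the lowest, 3.84, being close to it.

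The hydrogen minus control difference of Rprm was -1.43 log2 on the CDAA diet (2.70-fold lower with hydrogen) and -0.74 on normal chow (1.67-fold lower). The difference of these differences was -0.69 log2. As a description of the values on which the gene was chosen, Rprm ranked as number 10 from the lowest of 22634 probe sets on the CDAA diet, number 24 on normal chow and number 4 in the average of the diets (-1.09 log2). The probe sets ranked next to it in the average lay at -1.09 and -1.07 log2. With each array left out in turn, the difference lay between -1.55 and -1.24 log2 on the CDAA diet and between -0.84 and -0.68 on normal chow.

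The diet difference of Rprm was tested only as the average over hydrogen, which is orthogonal to the hydrogen difference on each diet, although the hydrogen CDAA livers enter it. Rprm averaged 5.12 log2 in the 8 CDAA livers and 5.70 in the 8 normal-diet livers, a difference of -0.58 ± 0.129 (limma adjusted p = 0.00128). The estimate of the spread in this test is shared with the hydrogen differences on which the gene was chosen. With any 1 array left out the difference was -0.63 to -0.48 log2. That range is a description only, because with unequal groups it is no longer orthogonal to every hydrogen difference. The control groups overlapped and the hydrogen groups did not, and most of the averaged difference lay between the hydrogen groups.

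None of the other 6 genes passed the test for hydrogen on either diet, in the average or in the interaction. On the CDAA diet limma called 0.314% of all probe sets, on normal chow 0.00884%, in the average 0.163% and in the interaction 0.00442%. At an unadjusted p under 0.05 limma gave 2617 probe sets on the CDAA diet, 1692 on normal chow, 2255 in the average and 2066 in the interaction. The median hydrogen difference of the 6 genes was -0.29 log2 on the CDAA diet and -0.10 on normal chow, against 0.01 and -0.01 over all genes (the hydrogen and diet comparisons share their arrays).

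Among these 6, Gadd45a had the lowest hydrogen value on the CDAA diet, at -1.16 ± 0.319 log2 (2.23-fold lower, limma adjusted p = 0.171). Hydrogen CDAA livers reached 7.92 and control CDAA livers went down to 7.79, so the groups just overlapped. Aen stood at -0.48 ± 0.146 log2 (adjusted p = 0.211) and Cdkn1a at -0.73 ± 0.410 (adjusted p = 0.521) in the same limma comparison. Ccng1, Mdm2 and Phlda3 stood at -0.07, -0.10 and -0.03 log2, below their standard errors. On normal chow Cdkn1a was the only one of the 6 whose groups did not overlap, with 5.32 to 5.47 log2 in hydrogen livers and 5.59 to 6.31 in control livers (-0.59 ± 0.410, limma adjusted p = 0.805). In that comparison 3.01% of all probe sets lay wholly lower with hydrogen, and on the CDAA diet 1.48% did and none of the 6 genes. The interaction was -0.83 ± 0.451 log2 for Gadd45a (limma adjusted p = 0.594) and -0.48 ± 0.207 for Aen (adjusted p = 0.517).

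For 3 of the 6 genes a single array decided whether the hydrogen difference on the CDAA diet was called. Replicate 2 of the control CDAA group was the lowest of its group for all 6 genes and for Rprm. Without it Cdkn1a was lower with hydrogen by -1.34 ± 0.187 log2 (2.53-fold lower, limma adjusted p = 0.00200), Aen by -0.64 ± 0.122 (1.56-fold, adjusted p = 0.0159) and Gadd45a by -1.39 ± 0.317 (2.61-fold, adjusted p = 0.0400). Mdm2, Ccng1 and Phlda3 stayed uncalled. With that array left out 0.557% of probe sets were called lower and 0.972% higher, against 0.137% and 0.177% with all arrays. Leaving out any other single array gave 0 of the 6 genes called in this comparison. This array was set aside after its values were seen.

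The same array moved other calls. Without it the diet raised all 6 genes in control rats, including Cdkn1a at 1.64 ± 0.187 log2 (3.11-fold, limma adjusted p = 2.26e-05) and Phlda3 at 0.49 ± 0.138 (adjusted p = 0.0123), with 20.4% of probe sets called higher. Cdkn1a was then lower with hydrogen in the average of the diets (-0.97 ± 0.128 log2, limma adjusted p = 0.00205). Under hydrogen 5 of the 6 were called higher on the CDAA diet, with 26.1% of probe sets called higher. The means in that comparison do not use the array, and only the shared estimate of the spread changed. Phlda3 was also called in the average over hydrogen (0.35 ± 0.0939 log2, limma adjusted p = 0.00554).

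**Figure D3:**
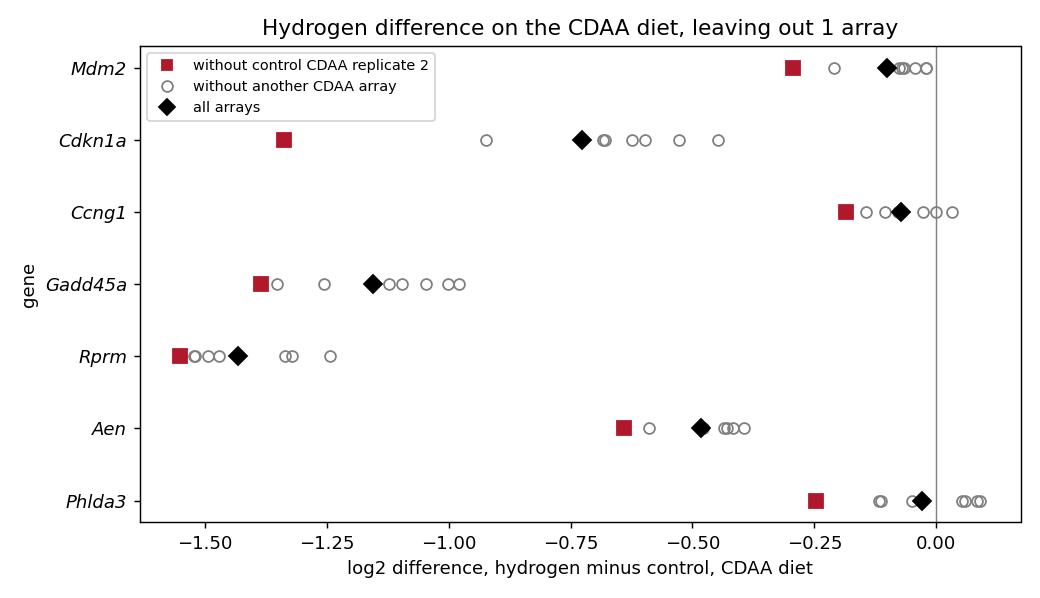
Hydrogen minus control difference on the CDAA diet (horizontal axis, log2) for the 7 measured genes, with all arrays (diamonds), without replicate 2 of the control CDAA group (squares) and without each other CDAA array (open circles). The square lies farthest to the left for every gene, at -1.34 for Cdkn1a.

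Other stress genes were also low on that array. The 12 ATF4 and unfolded protein response genes averaged 8.11 log2 there, against 8.60 to 9.42 on the other control CDAA arrays. The 13 immediate early genes averaged 6.43 log2, against 6.79 to 7.72, and the 20 proliferation genes 5.31, against 5.60 to 5.98. The opposite was seen on replicate 4 of the control normal-diet group, which was the highest of its group for 5 of the 6 genes and level with replicate 3 for Phlda3, and averaged 8.22 log2 for the ATF4 list, against 6.64 to 6.87 on the other arrays of the group, and 6.84 for the immediate early list, against 5.70 to 6.11. Marker lists also differed on control CDAA replicate 2. There the 5 pancreas markers averaged 4.86 log2, against 4.46 to 4.52 on the other control CDAA arrays. The 5 endothelial markers averaged 7.66 log2, against 7.33 to 7.56, and the 7 hepatocyte markers 12.36, against 12.55 to 12.70. That hepatocyte average depends largely on Tat, an inducible enzyme, which spread from 8.13 to 10.71 log2 in the control CDAA group. Apoa1, the next widest marker in that group, lay at 12.82 to 13.08, and Alb at 13.72 throughout. The part of these 2 arrays, and of these lists, in the results was not tested.

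**Figure D4:**
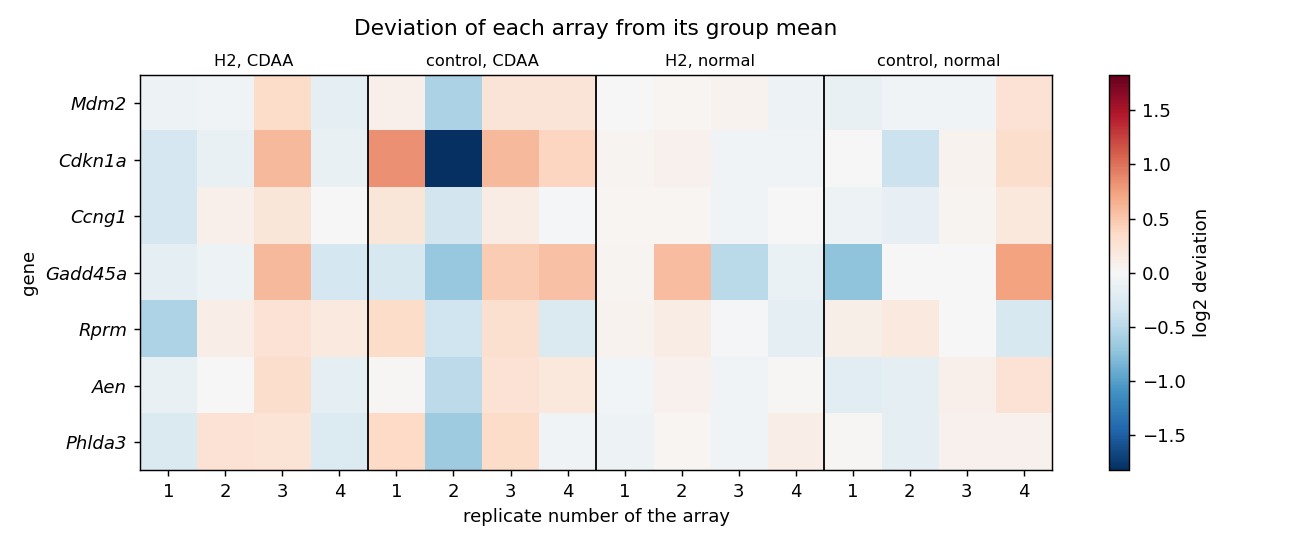
Deviation of each array from the mean of its group (colour scale, log2) for the 7 measured genes (rows) on the 16 arrays (columns, grouped, with replicate numbers). The column of control CDAA replicate 2 is blue in all rows, with -1.83 for Cdkn1a, and that of control normal replicate 4 is red in all rows but Rprm.

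Within groups the 6 genes deviated together from liver to liver. Over the 16 arrays the correlation of the deviations from the group means was 0.438 to 0.928 among the 15 pairs (Pearson r, median 0.807; Spearman rho 0.358 to 0.823). Without the 2 arrays just described it was 0.132 to 0.810 (median 0.605, 14 arrays). In the 6 pairs with Rprm it was 0.0789 to 0.609 over 16 arrays and 0.0909 to 0.797 without those 2. The values of one array share its RNA and its normalisation, and these correlations are given as a description. Whether pairs of genes outside the panel deviated together as much was not tested. The genes whose deviations were most like those of Mdm2 were Zfp260 (r = 0.954), Btg3 (0.939) and Tmem65 (0.930), and for Aen they were Zfp260 (0.938), Btg3 (0.929) and Mdm2 itself (0.928). For Cdkn1a they were Rnf11 (0.958), Tubb2a (0.937) and Ccdc68 (0.926), and for Gadd45a they were Ptpn23 (0.905), Yars1 (0.884) and Hcfc2 (0.884). For Ccng1 they were Septin2 (0.893), Zfp609 (0.883) and Mapre1 (0.877), for Phlda3 they were Plat (0.893), Calm2 (0.890) and Phlda2 (0.882), and for Rprm they were LOC100362820 (0.852), Fbln2 (0.833) and Spart (0.831). Each set of 3 is the highest of all genes tested, over 16 arrays with those 2 included. LOC100362820 had group means of 3.57 to 3.71 log2, around the detection line of 3.68. Phlda2 (3.62 to 4.04) and, on normal chow, Ccdc68 (3.135 and 3.17) were also near or below it.

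Other known p53 targets moved in both directions with the diet. Of 29 tested, 6 rose and 8 fell in control rats (median 0.01 log2), and 6 rose and 6 fell under hydrogen (median -0.03). Of all genes tested 27.3% rose and 13.3% fell in control rats, and 32.1% rose and 17.3% fell under hydrogen. Fas, a death receptor, rose by 0.68 ± 0.160 log2 in control rats (limma adjusted p = 0.00338) and by 1.07 under hydrogen. Gdf15, a stress-induced cytokine, rose by 0.83 ± 0.292 in control rats (limma adjusted p = 0.0364). Dcxr, a xylulose reductase, fell by 0.94 in control rats and by 1.14 under hydrogen. The sestrin Sesn1 fell by 0.58 log2 in control rats, and under hydrogen Sesn2 fell by 0.85 and Bbc3, the death protein PUMA, by 0.56.

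With hydrogen on the CDAA diet 1 of these 29 targets was called, where 0.192% of all genes rose and 0.184% fell. Sesn2 averaged 6.13 ± 0.264 log2 in hydrogen CDAA livers and 6.84 ± 0.308 in control CDAA livers (SD, n = 4 each), and fell by 0.70 ± 0.141 log2 (limma adjusted p = 0.0474). The call was lost when any 1 of 14 arrays was left out, with limma adjusted p up to 0.180, and was kept without hydrogen CDAA replicate 3 (adjusted p = 0.0160) or control CDAA replicate 2 (0.00281). Sesn2 is a target of ATF4 as well as of p53 and is in both lists.

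Of the 14 tested genes of p53 control 6 rose and 1 fell with the diet in control rats, and 6 rose and 2 fell under hydrogen. The share that rose was 42.9% in each, against 27.3% of all genes in control rats and 32.1% under hydrogen. The share that fell was 7.14% and 14.3%, against 13.3% and 17.3% of all genes. Mdm4, the partner of Mdm2, rose by 0.48 ± 0.126 log2 in control rats (limma adjusted p = 0.00713) and by 0.33 ± 0.126 under hydrogen (adjusted p = 0.0448). Rpl5 and Rpl11, ribosomal proteins that can bind and block Mdm2, rose by 0.61 and 0.60 log2 in control rats and by 0.66 and 0.60 under hydrogen. Usp7, which removes ubiquitin from p53 and Mdm2, fell by 0.38 and 0.54 log2 in the same order, and the checkpoint kinase Chek1 rose by 0.73 under hydrogen. The phosphatase Ppm1d stood at 0.12 ± 0.109 log2 in control rats (limma adjusted p = 0.422).

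Among the 17 other cyclin-dependent kinase inhibitors and antiproliferative genes tested, 4 rose and 1 fell in control rats, and 6 rose and 2 fell under hydrogen. The share that rose, 23.5% and 35.3%, was near that of all genes, 27.3% and 32.1%. The share that fell was 5.88% and 11.8%, against 13.3% and 17.3% of all genes. Klf6 rose by 1.95 ± 0.322 log2 in control rats and 1.47 under hydrogen, Btg3 by 1.51 and 1.22, and Rbl1, a relative of the retinoblastoma protein, by 0.88 and 1.24. Tob2 fell by 0.62 log2 in control rats. With hydrogen averaged over the diets 1 gene of this list was called, where 0.0437% of all genes rose and 0.149% fell. It was Btg1, a relative of the unmeasured Btg2, which fell by 0.33 ± 0.0473 log2 (limma adjusted p = 0.00606). Btg1 was called with any 1 array left out. Btg1 averaged 10.6 ± 0.136 log2 in hydrogen CDAA livers and 10.9 ± 0.0574 in control CDAA livers. On normal chow it averaged 10.4 ± 0.00957 in hydrogen livers and 10.8 ± 0.0963 in control livers (SD, n = 4 each).

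Of the 11 tested BCL2 family genes, the group to which Bax belongs, 3 rose and 1 fell with the diet in control rats and 3 rose and 3 fell under hydrogen. The 27.3% that rose in control rats was the same share as over all genes, and 9.09% fell, against 13.3%. Under hydrogen 27.3% rose and 27.3% fell, against 32.1% and 17.3% of all genes. The survival gene Bcl2a1 rose by 1.48 and 2.26 log2, and the death-promoting Bmf fell by 0.92 and 0.99. Bok rose by 0.52 and 0.51, and Mcl1, which protects cells, rose by 0.30 in control rats. With hydrogen 0 of the 11 were called on either diet. Bbc3 is counted both here and among the other p53 targets above, as are Ccng2 of the antiproliferative list and Ppm1d of the p53 control list in their own lists.

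Other lists are given as values beside the panel. Of all genes tested 27.3% rose and 13.3% fell with the diet in control rats, and 32.1% rose and 17.3% fell under hydrogen. Of 20 proliferation genes 7 (35%) rose and 0 fell in control rats, led by Mki67 (1.42 log2) and Mcm6 (0.69), and 8 (40%) rose and 0 fell under hydrogen. Of 12 immediate early genes 6 rose and 0 fell in control rats, led by Myc (3.52) and Atf3 (3.21), and 4 rose and 1 fell under hydrogen. Of 12 ATF4 and unfolded protein response genes 9 rose and 0 fell in control rats, led by Fgf21 (4.04) and Nupr1 (3.25), and 3 rose and 1 fell under hydrogen. Of 8 stellate cell and fibroblast markers 5 rose and 0 fell in control rats and 6 rose and 0 fell under hydrogen. Their mean log2 level was 6.99 to 7.26 in hydrogen CDAA livers, 7.02 to 7.31 in control CDAA livers, 6.44 to 6.50 in hydrogen normal-diet livers and 6.35 to 6.89 in control normal-diet livers. Of 7 macrophage markers 3 rose and 2 fell in control rats and 5 rose and 0 fell under hydrogen. Of 4 bile duct markers 2 rose and 0 fell in each. Endothelial markers, 5 in all, had 2 rising in control rats and 3 under hydrogen, and 0 falling. Lymphocyte and NK cell markers, 7 tested, had 1 rising and 2 falling in each. Hepatocyte markers, 7 tested, had 1 rising in each, with 1 falling in control rats and 2 under hydrogen. Blood cell markers, 2 tested, had 0 rising, with 2 falling in control rats and 1 under hydrogen. Pancreas markers, 3 tested, had 0 rising, with 0 and 1 falling. With hydrogen on the CDAA diet 0 genes of the proliferation, immediate early and stellate lists were called, and of 15 clock genes 4 rose and 4 fell, led by Dbp (2.44 log2) and Per3 (1.41). The part of these lists in the changes of the panel was not tested.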

How the data were processed

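Liver RNA of 16 rats was measured with 1 array each. Per the submitters' processing notes the authors used RMA and Affymetrix Expression Console (versions are not given in the sources used here), and deposited log2 values, 1 per probe set. RMA corrects background, quantile-normalises and combines probes, so a shift of all transcripts would not show. The labels name neither strip, scan date nor time of day of sampling, and depth does not apply to arrays.

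Computation began from these values. After 97 control probe sets were left out, a probe set was tested where it exceeded the 30th percentile of values (3.68 log2, the detection line) on at least 4 arrays, which kept 22634. Gene names came from the platform annotation: 19063 of the probe sets other than controls had 1 symbol, 572 had several and 11407 were not listed. The 7 measured genes matched RefSeq by Entrez identifier. All 16 arrays entered 1 limma 3.58.1 model (R 4.3.3) with a mean for each of the 4 groups, with Benjamini-Hochberg adjustment over all tested probe sets in each comparison, and a call needs an adjusted p under 0.05. The fit was tested on simulated data. Errors beside differences are standard errors of the fit. Replicates are separate samples per the labels. The members, the 16 lists and the tests were chosen with earlier results of these data known. Named genes are all members, up to 4 called genes of largest change per list and comparison, Mdm4, Ppm1d and 1 gene that is not reported here, and the 3 genes of most similar deviations from group means. Alternatives were other normalisations, filters, variance models, array weights, probe set means, a replicate block, the compared groups alone and each array left out. Figures were drawn with matplotlib 3.10.9.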

Additional observations from a re-analysis of the deposited data

Results flagged for a closer look

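Of 28 checks of a gene in a group of 4 arrays, 2 found an array far from the other 3. Both were replicate 2 of the control CDAA group, which read 6.76 log2 for Mdm2, against 7.44 to 7.58 on the other arrays of the group, and 5.18 for Cdkn1a, against 7.40 to 7.85. The gap to the nearest array, as a share of the group's range, was 0.831 for Cdkn1a and just past Dixon's limit for groups of 4 for Mdm2. Such a limit is passed by chance in about 1 in 20 groups.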

How the results depend on the processing

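Over all alternatives and arrays left out, 0 of the member differences changed direction among called ones and 0 calls were lost, while 31 differences gained a call and 48 uncalled ones, most of them near 0, moved off or across 0. For the diet under hydrogen, 5 of 6 genes were called with only the groups compared in the fit (a setting run for comparisons of 2 groups), 5 without control CDAA replicate 2 and control normal replicate 4 (added after seeing the data), and 2 to 5 with 1 array left out. For hydrogen on the CDAA diet 3 were called without those 2 arrays and 0 to 3 with 1 left out, and for hydrogen averaged over diets 1 and 0 to 1. For the diet in control rats 4 to 6 were called with 1 array left out, and 6 to 7 of 7 averaged over hydrogen. Array weights gave Cdkn1a 1.34 log2 for the diet in control rats (limma adjusted p = 0.00310) and Phlda3 0.40 (adjusted p = 0.0443). The labels do not say that replicate numbers pair the samples, and they were not used as pairs: of 24 same-numbered pairs 9 had deviations correlated over 0.1 (-0.129 to 0.325). As a hint from the data, not the design, 11 of 16 arrays correlated best with an array of their own number. With a replicate block 5 genes were called for the diet in control rats, against 4, Cdkn1a being added (1.03 log2, limma adjusted p = 0.0447), and the block changed no other call of the 7 genes. The number of arrays and the spread of control CDAA livers limit what can be called for hydrogen.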
